A study of Mus musculus with 13 samples.

Results

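The fibroblast growth factor homologous factors (FHFs) are a family of 4 mouse genes, *Fgf11*, *Fgf12*, *Fgf13* and *Fgf14*, out of 50508 genes listed in the count tables, of which 27777 had a count in at least 1 neuron kept by the authors. Their rows were read over those 586 kept neurons, by stage and by cluster. The family was chosen by measured values of these same neurons, the level of *Fgf11* in adult cluster 5 among them, so values by adult cluster are given as a description without a test.

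FHFs resemble the secreted fibroblast growth factors in sequence but lack a signal for secretion and stay inside the cell. They bind the cytoplasmic tail of voltage-gated sodium channels, where they shift the voltage at which channels inactivate and influence how channels gather at the axon initial segment and nodes of Ranvier. *Fgf13* is also known as a microtubule-binding protein of young neurons and for its part in heat sensing by nociceptors. Proprioceptors, the sensory neurons of muscle spindles and Golgi tendon organs, can fire fast trains of action potentials, which need sodium channels. In the study's recordings of isolated proprioceptors many fired only a single action potential, while others fired bursts or tonic trains.

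On the mouse build GRCm38, to which the reads were aligned, all 4 genes lie on the minus strand. *Fgf11* is compact, at chr11:69796068-69802944, a span of 6877 bases. *Fgf12* (chr16:28157783-28753243), *Fgf13* (chrX:59062139-59585572) and *Fgf14* (chr14:123974441-124677686) span 595461, 523434 and 703246 bases. The RefSeq start windows used here number 1 for *Fgf11* and for *Fgf14*, and 4 for *Fgf12* and for *Fgf13*. Those of *Fgf11* and *Fgf14* lie within the span of their gene, and further starts were not analysed here. The counts are per gene, so which start was in use in a neuron cannot be told from them.

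The 250 bases before 1 RefSeq start each (GRCm38.p6), for *Fgf12* and *Fgf13* the outermost, are shown, read along the minus strand, for the 3 members with enough counts to be compared between stages, to show how unlike their start regions are. Capitals mark the core of the RUNX site, TGTGGT, whose factor Runx3 is a defining gene of proprioceptors, and the GC box, GGGCGG, each searched on both strands.
*Fgf11* (chr11:69802281-69802530): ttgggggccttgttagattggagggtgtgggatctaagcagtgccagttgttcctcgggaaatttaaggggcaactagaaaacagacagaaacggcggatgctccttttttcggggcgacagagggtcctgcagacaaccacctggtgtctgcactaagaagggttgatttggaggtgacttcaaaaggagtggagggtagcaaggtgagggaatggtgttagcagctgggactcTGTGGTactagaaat
*Fgf12* (chr16:28753244-28753493): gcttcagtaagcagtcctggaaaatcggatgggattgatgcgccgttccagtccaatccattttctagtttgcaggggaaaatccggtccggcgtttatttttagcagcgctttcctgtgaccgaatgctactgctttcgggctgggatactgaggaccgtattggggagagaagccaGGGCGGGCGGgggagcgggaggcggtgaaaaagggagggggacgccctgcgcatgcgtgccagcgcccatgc
*Fgf13* (chrX:59585573-59585822): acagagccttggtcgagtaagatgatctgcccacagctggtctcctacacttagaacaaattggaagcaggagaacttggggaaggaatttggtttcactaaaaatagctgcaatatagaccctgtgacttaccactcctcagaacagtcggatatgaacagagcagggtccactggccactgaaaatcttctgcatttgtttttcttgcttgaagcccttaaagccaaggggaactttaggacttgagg
The *Fgf12* window was GC-rich (58.4%) with 18 CpG dinucleotides, against 51.2% and 5 for *Fgf11* and 45.6% and 2 for the outermost *Fgf13* window. Over 32851 windows of this length in RefSeq the medians were 52.4% and 6. *Fgf13* also has starts with CpG-rich windows, which held 33 (chrX:59567349-59567598) and 31 CpG dinucleotides (chrX:59134437-59134686). The RUNX core stood in 1 of the 10 member windows, that of *Fgf11*, and in 14.0% of all windows. The GC box stood in 6 of the 10 and in 32.7% of all. In the *Fgf12* window 2 matches of the GC box overlap each other. No RUNX core overlaps a GC box in the sequences shown, and a match is a description of the letters and not a site of binding.

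Single neurons of mouse dorsal root ganglia carrying the red reporter tdTomato had been sorted into 13 plates of 96 wells, 5 adult (older than p56), 4 p12, 2 p0 and 2 e14.5, from animals of either sex. At the 3 postnatal stages the mice were *PV:Cre+/-;Rx3:Flp+/-;Ai65+/-*, in which the reporter needs both recombinases and so marks neurons that have expressed *PV* and *Rx3* at any time. The e14.5 embryos carried *TrkC:tdTomato*, which also marks neurons other than proprioceptors, and stage and reporter cannot be told apart there. The neurons of a stage came from 6 adult, 4 p12, 6 p0 and 2 e14.5 animals, which the labels do not assign to plates, so p-values measure only the spread between plates. Kept were 208 adult, 154 p12, 55 p0 and 169 e14.5 neurons, with cluster numbers from the authors' annotation. In the published naming adult cluster 1 holds group Ia spindle afferents and cluster 5 group Ib tendon organ afferents, while group II spindle afferents are a tentative name for clusters 2 to 4.

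Counts are Unique Molecular Identifiers (UMIs), 1 for each captured transcript. Levels are CPM, the UMIs of a gene per 1000000 UMIs of its neuron, as the mean of the neurons on each plate. Stage and cluster values are the mean ± SD of these plate means. Levels of different genes are not ranked against each other, since the part of a transcript that was read is not given in the sources used here. Kept neurons held on average 9669 to 65165 UMIs, depending on the plate, with both e14.5 plates (13061 and 9669) below all others. The 5 proprioceptor markers *Pvalb*, *Runx3*, *Ntrk3*, *Etv1* and *Whrn* were detected at every stage, although *Whrn* averaged 1.23 CPM at e14.5. Summed, they stood at 716 and 685 CPM in e14.5 clusters 3 and 4 and at 1875 and 2049 CPM in e14.5 clusters 1 and 2. Markers of 8 satellite and Schwann cell genes summed to 4.05 to 22.6 CPM on the e14.5 plates and to 166 to 814 CPM on the later ones. The 8 p0 neurons of cluster 3 held 3241 CPM of these markers. Markers of other sensory neurons summed to no more than 21.8 CPM on any plate. All 13 plates used the same 96 well barcodes, and plates are told apart by their files.

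*Fgf12* and *Fgf13* changed in opposite directions during development. *Fgf13*, a regulator of sodium channels and microtubules, was highest in the embryo and fell, while *Fgf12*, which binds the sodium channels of many neurons, was lowest in the embryo and rose. Between e14.5 and the adult the mean CPM of *Fgf12* became 4.35 times higher and that of *Fgf13* 5.02 times lower. *Fgf11* had its lowest plate mean at e14.5. *Fgf14*, known for its part in cerebellar neurons, did not exceed 7.21 CPM on any plate.

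*Fgf12* averaged 57.2 and 53.8 CPM on the e14.5 plates and 157 and 149 CPM on the p0 plates. At p12 the 4 plates had 226, 230.0, 217 and 229 CPM, and in the adult the 5 plates had 222, 249, 273, 243 and 219.9 CPM. Every e14.5 plate lay below every p0 plate and every p0 plate below every p12 plate, whereas the p12 and adult plates overlapped. UMIs summed by plate and fitted with edgeR's quasi-likelihood F-test over 11939 genes gave a rise of 1.38 on the log2 scale from e14.5 to p0 (SE 0.21, adjusted p = 3.94e-04). From p0 to p12 *Fgf12* rose by a further 0.70 (SE 0.18, adjusted p = 0.0129, edgeR). The second rise was not called without either p0 plate (adjusted p = 0.0857 and 0.174) nor with no filter on low counts (0.0616). From p12 to the adult the log2 difference was 0.07 (SE 0.13, adjusted p = 0.764, edgeR), and in thinned neurons it was -0.11.

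*Fgf13* averaged 634 and 611 CPM at e14.5 and 295 and 240.3 CPM at p0. The p12 plates had 207, 232, 197 and 190.4 CPM, and the adult plates 155, 131, 115, 115 and 105 CPM. No 2 neighbouring stages overlapped in these plate means. From e14.5 to p12 the order was the reverse of that of *Fgf12*, whose p12 and adult plates overlapped. In the edgeR fit *Fgf13* fell by 1.34 on the log2 scale from e14.5 to p0 (SE 0.21, adjusted p = 4.98e-04) and by 0.71 from p12 to the adult (SE 0.14, adjusted p = 0.00543). Between p0 and p12 the log2 difference was -0.28 (SE 0.18, adjusted p = 0.305) and did not pass the test.

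*Fgf11* averaged 9.20 and 9.94 CPM on the e14.5 plates, which together held 17 UMIs of it in 169 neurons, and 31.0 and 34.8 CPM at p0. The p12 plates split, with 14.6 and 9.64 CPM on replicates 1 and 2 and 25.4 and 27.0 CPM on replicates 3 and 4. Adult plates had 20.2, 26.0, 29.3, 23.9 and 19.5 CPM. In kept neurons *Fgf11* thus lay higher on both p0 plates than on any plate of another stage, whereas over all wells with at least 2000 genes the p0 plates (28.5 and 30.2 CPM) overlapped with the adult ones (23.1 to 29.9 CPM). It rose by 1.78 from e14.5 to p0 (SE 0.53, adjusted p = 0.0220, edgeR), a call that was lost without any 1 of the 4 plates concerned (adjusted p = 0.0731 to 0.101) and in neurons thinned to 7000 UMIs (0.168). The log2 differences of -0.44 from p0 to p12 (SE 0.39, adjusted p = 0.484) and -0.14 from p12 to the adult (SE 0.31, adjusted p = 0.798) did not pass. The pairs of p12 plates hold different clusters, 2 and 3 on replicates 1 and 2 and 1, 4 and 5 on replicates 3 and 4. With p12 replicates 1 and 2 alone, a choice made after seeing the data, *Fgf11* fell by 1.47 from p0 to p12 (adjusted p = 0.0132), and with replicates 3 and 4 alone the difference was 0.05 (adjusted p = 0.929). The sign of the p12 to adult difference also turned, to 0.89 with replicates 1 and 2 alone (adjusted p = 0.141) and to 0.28 in thinned neurons (adjusted p = 0.717).

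**Figure D1:**
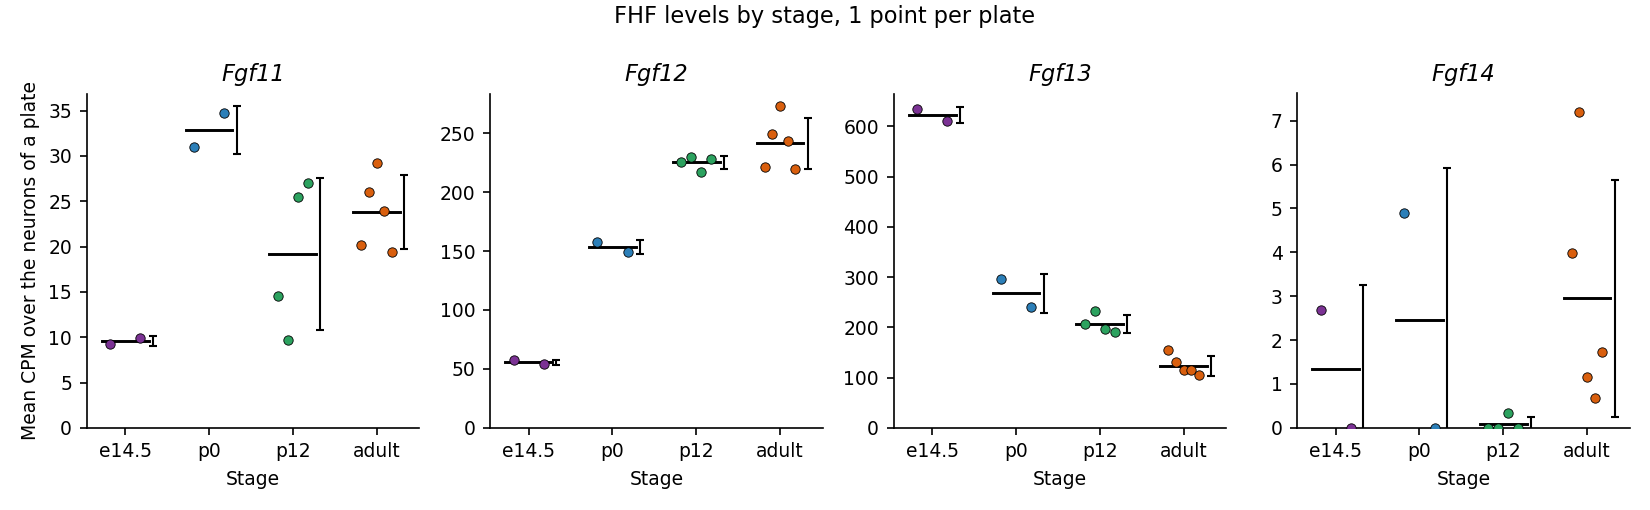
Mean CPM of each FHF over the neurons of a plate, 1 point per plate, by stage. Horizontal lines are means over plates and bars beside them the SD either side of the mean, cut at 0, and each gene has its own vertical axis. Points of *Fgf12* climb from 53.8 and 57.2 CPM at e14.5 to 219.9 to 273 CPM in the adult, points of *Fgf13* descend from 611 and 634 to 105 to 155 CPM, and those of *Fgf14* do not exceed 7.21 CPM.

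Of the 3 members tested, all 3 were called from e14.5 to p0, where 27.8% of all tested genes were called, 2 of them higher and 1 lower. From p0 to p12, 1 of 3 was called against 18.1% of all genes, and from p12 to the adult 1 of 3 against 14.1%. The members were chosen with earlier results of these data known, so these counts are no test of the family. Summed glia markers moved between the same stages, most between e14.5 and p0, and their part in the results was not tested. Without the 8 glia-rich neurons of p0 cluster 3 the e14.5 to p0 differences were 1.68, 1.42 and -1.32 for *Fgf11*, *Fgf12* and *Fgf13*, all called (adjusted p = 0.0296, 2.14e-04 and 3.83e-04, edgeR). In neurons thinned to 7000 UMIs the e14.5 to p0 differences were 1.17 for *Fgf12* (adjusted p = 0.0237) and -1.52 for *Fgf13* (adjusted p = 0.00123), and that of *Fgf13* from p12 to the adult was -0.98 (adjusted p = 0.00797, edgeR). Digestion lasted longer at p12 than at p0 and longer in the adult than at p12, and at those 2 steps it cannot be told apart from stage.

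*Fgf14* had too few UMIs to enter the fit. In the adult, 12 of 208 neurons held 19 UMIs of it, at p12 1 of 154 neurons held 1 UMI, at p0 5 of 55 held 6 UMIs and at e14.5 2 of 169 held 3 UMIs. All UMIs of p0 and e14.5 came from replicate 1 of the stage. Exact 95% intervals for the pooled level, which cover counting error only, ran from 1.24 to 3.20 CPM in the adult and from 0.00537 to 1.18 CPM at p12. They overlapped between p0 (0.963 to 5.71 CPM), e14.5 (0.328 to 4.64 CPM) and the adult. The adult and p12 intervals did not overlap in kept neurons, but over all wells with at least 2000 genes the plates of p12 (0 to 1.58 CPM) and of the adult (0.793 to 8.27 CPM) did. The gene *Itgbl1* and a pseudogene, *Gm15422*, overlap the span of *Fgf14* in RefSeq, and the kept neurons held 14 and 27 UMIs assigned to them.

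The levels of *Fgf12* and *Fgf13* were also set against each other as a ratio within each plate. Both genes were called from e14.5 to p0, only *Fgf12* from p0 to p12 and only *Fgf13* from p12 to the adult. For each UMI of *Fgf13* the e14.5 plates held 0.107 and 0.0919 UMIs of *Fgf12*, the p0 plates 0.638 and 0.678, the p12 plates 1.28, 1.21, 1.34 and 1.37, and the adult plates 1.81, 2.36, 2.32, 2.40 and 2.40. No 2 stages overlapped by plate, whereas single clusters did. Adult cluster 4 had 0.736 and 0.920, below the p12 plates, and p12 cluster 2 had 3.49 and 5.45, above the adult plates. The ratio stood at 0.0993 ± 0.0104 (SD, n = 2 plates) at e14.5 and at 2.26 ± 0.254 (n = 5) in the adult, and its change over stages, not its size, is comparable, since levels of different genes are not compared.

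At the 3 postnatal stages most neurons held UMIs of more than 1 member, whereas at e14.5 88 of 169 held 1 member only. Both *Fgf12* and *Fgf13* had a UMI in 95.7% of 208 adult, 94.2% of 154 p12, 94.5% of 55 p0 and 43.8% of 169 e14.5 neurons. All e14.5 and all p0 neurons had a UMI of *Fgf13*, with a median of 6 and 10 UMIs per neuron. The median for *Fgf12* was 0 at e14.5, 5 at p0 and at p12, and 9 in the adult, with up to 50 UMIs in 1 adult neuron. *Fgf11*, *Fgf12* and *Fgf13* were found together in 38.5% of adult, 39.6% of p12, 61.8% of p0 and 5.33% of e14.5 neurons. Only 6 neurons in all had a UMI of each of the 4 genes, 3 adult, 1 p12 and 2 p0. At an equal depth of 7000 UMIs the share with both *Fgf12* and *Fgf13* was 37.0% (adult), 55.3% (p12), 45.5% (p0) and 27.2% (e14.5), which left out 18 e14.5 and 2 p12 neurons. At that depth 16 adult neurons held no member and 98 held 1, of 208. *Fgf11*, *Fgf12* and *Fgf13* together were then found in 6.25% (adult), 8.55% (p12), 7.27% (p0) and 3.31% (e14.5), so p0 no longer had the highest share. The share with both *Fgf12* and *Fgf13* was lowest at e14.5 at both depths, and the order of the other 3 stages differed between them. In the 111 wells of the plates with fewer than 2000 genes, none of them kept, 11.7% had a UMI of *Fgf12* and 21.6% of *Fgf13* at a median of 235 UMIs.

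In the adult the members divided the clusters in 3 different ways: *Fgf11* was high in clusters 2 and 3 and low in clusters 1 and 5, *Fgf12* was low in cluster 4, and *Fgf13* was higher in clusters 4 and 5 than in cluster 1. The clusters had been found in these same neurons, so the differences below are log2 differences of sums by cluster and plate with a standard error and no p-value. Clusters 2 and 4 had neurons on replicates 1 and 2 alone, and cluster 3 had 38 of its 41 neurons on replicates 3 to 5. Within clusters 1 and 5, which lie on all plates, replicates 1 and 2 differed from replicates 3 to 5 by -0.43 (SE 0.73) for *Fgf11*, -0.18 (SE 0.13) for *Fgf12* and 0.02 (SE 0.19) for *Fgf13*.

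*Fgf11* averaged 55.8 and 68.2 CPM on the 2 plates of cluster 2. Cluster 3 had 62.6, 46.8, 46.4 and 32.7 CPM on replicates 2 to 5, the value of replicate 2 resting on 2 neurons. Cluster 4 had 24.6 and 33.2 CPM, and cluster 1 had 9.44, 10.1, 2.28, 14.1 and 6.25 CPM. In cluster 5 the plates had 2.76, 0, 7.80, 0 and 4.79 CPM. The order was therefore cluster 2, 3, 4, 1 and 5. Neighbours overlapped except between cluster 4 and cluster 1, so that every plate of clusters 2 to 4 lay above every plate of clusters 1 and 5. Clusters 1 and 5 combined lay 3.27 below clusters 2 to 4 on the log2 scale (SE 0.37), and cluster 5 lay 1.84 below cluster 1 (SE 0.68), a difference of -2.72 without replicate 3 and -1.24 without replicate 4. The cluster 5 level rests on 4 UMIs in 31 neurons, or 2.25 CPM pooled, with an exact 95% interval of 0.612 to 5.75 CPM. Its difference from the other clusters, -3.60 (SE 0.54), was -2.99 without replicate 2, -4.29 without replicate 3, -4.63 within replicates 1 and 2 and -2.37 within replicates 3 to 5, where the others are clusters 1 and 3 only.

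Counted by neuron, *Fgf11* had a UMI in 43 of 56 neurons of clusters 2 and 3 and in 17 of 82 neurons of clusters 1 and 5. The latter were the deeper ones, with medians of 59922 (cluster 1) and 57694 UMIs (cluster 5) against 31306 (cluster 2) and 35599 (cluster 3). Cluster 4, the shallowest at 20138 UMIs, had a UMI of *Fgf11* in 10 of 28 neurons. After thinning to 7000 UMIs the plate means of the share were 47.7% in cluster 2, 33.2% in cluster 3, 24.6% in cluster 4, 8.15% in cluster 1 and 2.86% in cluster 5. The order by level was the same as the order by thinned share. Glia markers summed to a median of 164 to 263 CPM per neuron in the 5 clusters, and their part in these differences was not tested.

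*Fgf12* was found in all 138 neurons of clusters 1, 2, 3 and 5 and in 26 of 28 neurons of cluster 4. Cluster 1 had 308, 330.2, 287, 326 and 348 CPM on the 5 plates. Cluster 5 had 217, 244, 387, 278 and 246 CPM, with replicate 3 well above the others at 4 neurons. Clusters 2 and 3 averaged 284 ± 40.7 (SD, n = 2) and 263 ± 54.7 CPM (n = 4) and overlapped with both. Cluster 4 had 139 and 159 CPM, below every plate of the other clusters. Its log2 difference from the mean of the others was -0.92 (SE 0.21), while that of cluster 1 was 0.46 (SE 0.13) and that of cluster 5 was 0.21 (SE 0.14).

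*Fgf13* ran from 216 and 152 CPM in cluster 4 down to 84.8, 48.6, 76.8, 55.5 and 59.3 CPM in cluster 1. Cluster 5 had 157, 177, 205, 166 and 95.3 CPM, the lowest value resting on 3 neurons. Clusters 2 and 3 lay between, at 104 ± 6.23 (SD, n = 2) and 87.2 ± 14.4 CPM (n = 4). Each cluster overlapped with its neighbour in this order (4, 5, 2, 3, 1), whereas clusters 5 and 1 did not overlap on any plate. Cluster 5 lay 1.35 above cluster 1 on the log2 scale (SE 0.21). In thinned neurons this difference was 0.74 (SE 0.40). Cluster 4 lay 0.91 above the others (SE 0.24) and cluster 1 lay 0.99 below them (SE 0.18), in thinned neurons 1.44 above (SE 0.36) and -0.35 (SE 0.36). Thinned shares of neurons with a UMI were 81.0% in cluster 4, 61.0% in cluster 5, 33.6% in cluster 3, 30.2% in cluster 1 and 21.6% in cluster 2, so at equal depth cluster 2 and not cluster 1 was lowest.

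**Figure D2:**
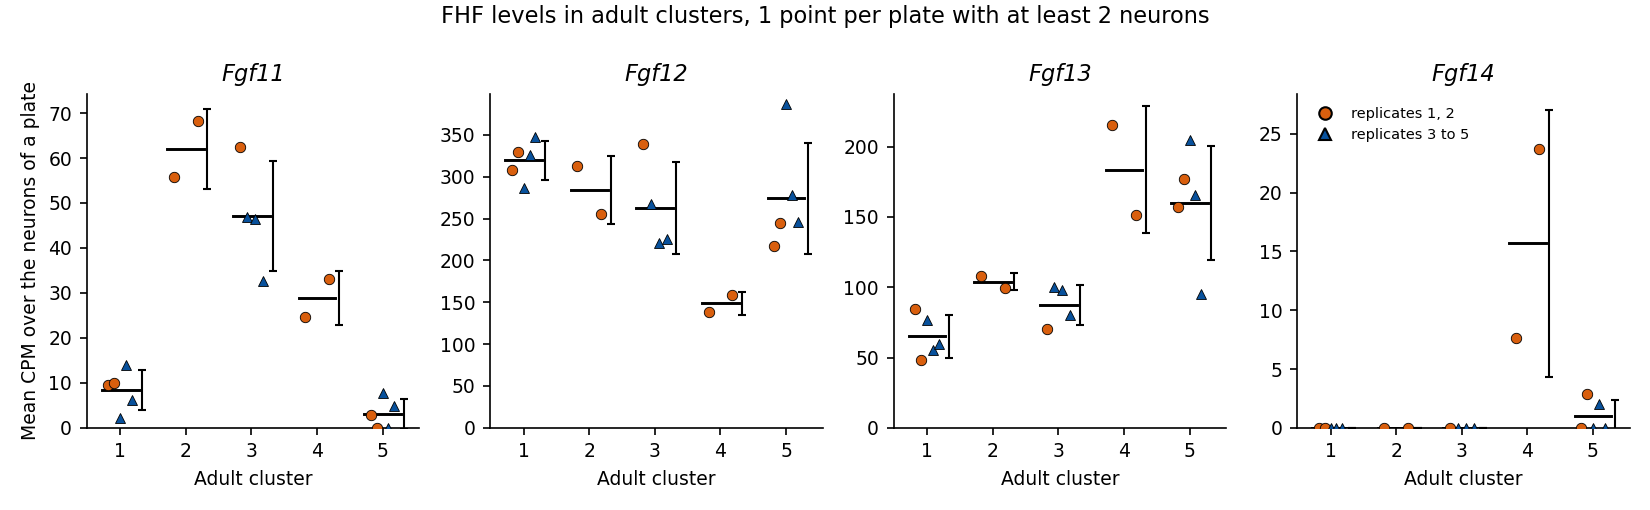
Mean CPM of each FHF in the 5 adult clusters, 1 point per plate with at least 2 neurons of the cluster, circles for replicates 1 and 2 and triangles for replicates 3 to 5. Horizontal lines are means over plates, bars the SD either side, cut at 0, and each gene has its own vertical axis. *Fgf11* lies between 24.6 and 68.2 CPM in clusters 2 to 4 and between 0 and 14.1 CPM in clusters 1 and 5, *Fgf12* is lowest in cluster 4, and *Fgf13* is lowest in cluster 1.

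The few adult UMIs of *Fgf14* were uneven. Cluster 4 held 7 UMIs in 5 of 28 neurons, 3 on replicate 1 and 4 on replicate 2, and cluster 5 held 4 UMIs in 2 of 31 neurons. Pooled, cluster 4 had 11.7 CPM (exact 95% interval 4.69 to 24.0) and cluster 5 had 2.25 CPM (0.612 to 5.75). None of the 107 neurons of clusters 1, 2 and 3 had a UMI, which allows a share of neurons with a UMI of up to 2.80% and a pooled level of up to 0.575 CPM. This limit is set at 3 counts and differs from the exact intervals above, and it does not limit the share of neurons that express the gene. Another 8 UMIs lay in 5 of the 42 adult neurons outside the 5 clusters.

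These 42 neurons were intermediate for *Fgf11*, with 19.2 ± 10.6 CPM (SD, n = 5 plates). Their *Fgf12* (190.2 ± 31.6 CPM) was between that of cluster 4 and of the others, and their *Fgf13* (174 ± 31.1 CPM) between that of clusters 4 and 5. The adult ratio of *Fgf12* to *Fgf13* UMIs ran from 0.828 ± 0.130 (SD, n = 2) in cluster 4 through 1.77 ± 0.417 (n = 5) in cluster 5 to 5.56 ± 1.79 (n = 5) in cluster 1. Plates of cluster 1 had ratios from 3.64 to 7.80 and plates of cluster 5 from 1.44 to 2.41.

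At p12 the clusters with the least *Fgf13* had the most *Fgf12*. *Fgf13* had 296 and 284 CPM in cluster 3, 285 and 232 CPM in cluster 1, 165 and 119 CPM in cluster 4, 82.9 and 56.7 CPM in cluster 2, and 87.0 and 12.1 CPM in cluster 5. The low pair, clusters 2 and 5, did not overlap with the other 3 clusters. *Fgf12* had its highest levels in the same 2 clusters, 293 and 288 CPM in cluster 2 and 372 and 297 CPM in cluster 5. It had 208 and 281 CPM in cluster 4, 191 and 201 CPM in cluster 1, and 178 and 212 CPM in cluster 3. Clusters 2 and 5 hold 8 neurons each and lie on different pairs of plates. On replicate 4 cluster 5 is 2 neurons, with 1 UMI of *Fgf13* and 23 UMIs of *Fgf12*, too few to set it apart from cluster 4 in *Fgf12* (297 against 281 CPM). *Fgf11* had its lowest mean in cluster 2 (4.06 and 10.8 CPM) and its highest in cluster 4 (27.6 and 38.8 CPM). Cluster 2 rests on 4 UMIs in 8 neurons and overlapped with cluster 3 (22.1 and 9.30 CPM). Clusters 1 (23.8 and 21.5 CPM) and 5 (17.7 and 26.9 CPM) lay between clusters 2 and 4.

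At p0 the 3 clusters overlapped for *Fgf13*, which averaged 265 ± 36.7, 247 ± 19.6 and 318 ± 88.6 CPM in clusters 1, 2 and 3 (SD, n = 2). *Fgf12* stood at 177 and 149.6 CPM in cluster 1, 110.1 and 133 CPM in cluster 2 and 145 and 168 CPM in cluster 3. Cluster 2 lay below both others in these means, but with pooled UMIs it had 123 and 129 CPM and overlapped with cluster 3 (169 and 108 CPM). *Fgf11* in cluster 3 had 20.3 and 86.7 CPM on its plates, the widest spread of any cluster at p0, at 4 neurons each. At e14.5 *Fgf12* had 106 and 98.9 CPM in cluster 3 against 41.7 and 44.8 CPM in cluster 1 and 41.2 and 42.9 CPM in cluster 2. Cluster 4, with 5 neurons on replicate 2, had 69.8 CPM of *Fgf12* and 754 CPM of *Fgf13* there. Cluster 3 is one of the 2 clusters low in the proprioceptor markers, and its neurons were deeper (median 14520 UMIs against 8405 and 10638). *Fgf13* had 724 and 611 CPM in cluster 1, 593 and 610.3 CPM in cluster 2 and 616 and 566 CPM in cluster 3. Cluster 3 overlapped with clusters 1 and 2, whereas every plate of cluster 1 lay above every plate of cluster 2, by less than 1 CPM at the nearest. With e14.5 clusters 1 and 2 alone, the rise of *Fgf12* to p0 was 1.83 on the log2 scale.

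**Figure D3:**
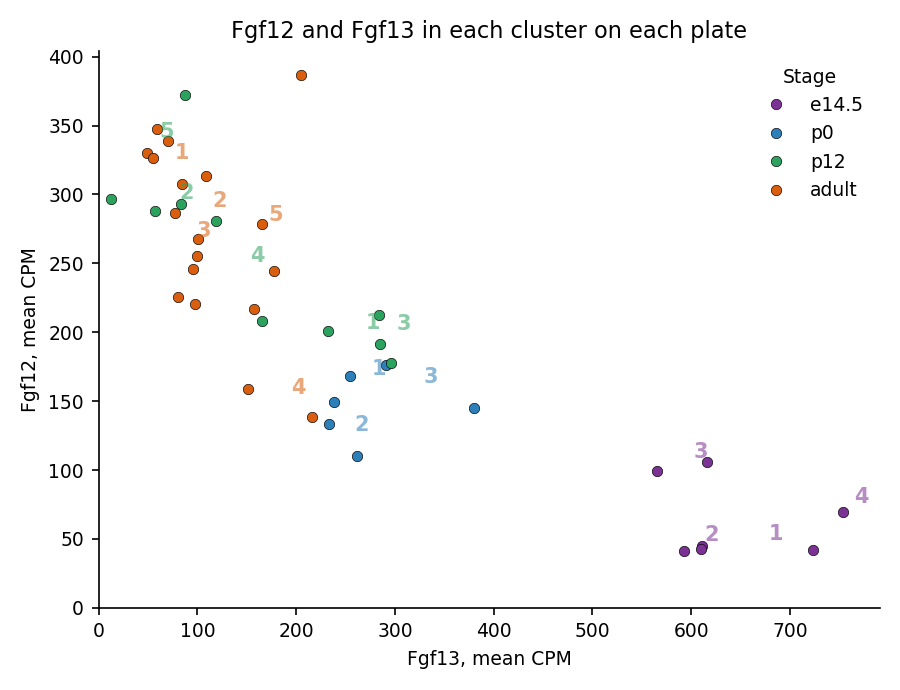
Mean CPM of *Fgf12* against that of *Fgf13* in each cluster on each plate with at least 2 neurons, 41 points, coloured by stage, with the cluster number beside the mean of its points. The e14.5 points lie at the lower right, at 566 CPM of *Fgf13* or more. Those of p12 clusters 2 and 5 and adult cluster 1 lie at the upper left, under 87.1 CPM of *Fgf13*. Adult cluster 3 on replicates 2 and 5 (70.4 and 80.2 CPM of *Fgf13*) lies there too.

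Over those 41 sums of cluster and plate, Pearson's r between *Fgf12* and *Fgf13* (log2 of CPM + 1) was -0.77, and over the 18 adult sums it was -0.45. *Fgf11* was related weakly to either (0.02 with *Fgf12* and -0.11 with *Fgf13*). Points share plates, stages and depth, and the values describe the spread in the plot of *Fgf12* against *Fgf13* with no test. The genes whose pattern was most like that of *Fgf12* were *G0s2*, *Nefh* and *Cacna2d3* (r = 0.94, 0.94 and 0.93), of which *Nefh* encodes the heavy neurofilament and *Cacna2d3* an auxiliary calcium channel subunit. For *Fgf13* they were *Rprm*, *Klf6* and *Gstp1* (r = 0.88, 0.87 and 0.87), and for *Fgf11*, *Pcdh10*, *Pmfbp1* and *Tuba8* (r = 0.63, 0.59 and 0.58). In the adult sums alone the leading gene for *Fgf11* was *Nxph1* (r = 0.86), and 1 of its 3 genes, *Tuba8*, was the same. For *Fgf12* (*Paqr4*, *Cachd1* and *Hist1h2bc*) and for *Fgf13* (*Kazald1*, *Slk* and *Cntnap2*) 0 of the 3 were the same.

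Genes for the sodium channels that FHFs bind also changed between stages, in both directions. Of 10 genes for sodium channel alpha subunits, the pores of the channels, 6 were tested. From e14.5 to p0, 2 rose and 2 fell, from p0 to p12, 2 rose and 3 fell, and from p12 to the adult, 1 rose and 2 fell. Over all tested genes 27.8%, 18.1% and 14.1% were called at these steps. The median log2 differences of the 6 were -0.18, -0.74 and -0.13 (all genes: 0.01, 0.02 and 0.04). *Scn8a*, the main subunit at mature nodes, went from 25.4 ± 3.51 CPM at e14.5 (SD, n = 2) to 289.9 ± 43.1 CPM in the adult (n = 5) and was called higher at each step (1.89, 1.32 and 0.53 on the log2 scale). *Scn1a*, a subunit of fast-spiking neurons, rose by 3.11 from e14.5 to p0 (adjusted p = 2.31e-05) and by 0.81 from p0 to p12 (adjusted p = 0.0350). *Scn3a*, the subunit of embryonic neurons, fell at each step (-1.50, -1.99 and -1.74), and *Scn2a* fell by 2.11 from p0 to p12 (adjusted p = 6.81e-04).

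Genes for beta subunits, which modify the pore, also changed in both directions. *Scn4b* rose by 3.11 from e14.5 to p0 (adjusted p = 0.00563) and by 3.67 from p0 to p12 (adjusted p = 1.16e-05). *Scn2b* fell by 1.50 from e14.5 to p0 and by 5.40 from p12 to the adult, where it averaged 2.51 ± 2.94 CPM (SD, n = 5), and *Scn3b* fell by 2.58 from p0 to p12 and by 2.15 from p12 to the adult.

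Of 6 genes of the axon initial segment and node, 2 fell from e14.5 to p0 (*Ank3*, the master scaffold, by 1.19, and the adhesion molecule *Nrcam* by 2.53). From p0 to p12, 2 rose (*Nrcam* by 2.57 and the spectrin *Sptbn4* by 1.70), and from p12 to the adult 1 rose (*Nfasc*, the nodal adhesion molecule, by 0.70), counts that in so short a list lie near the 27.8%, 18.1% and 14.1% called over all genes. Their medians were -0.23, 0.46 and 0.39. Both kinase scaffolds that bind FHFs rose from e14.5 to p0, *Mapk8ip1* by 1.25 and *Mapk8ip2* by 1.10. *Mapk8ip2* rose again at both later steps (0.58 and 0.62). Of 18 secreted relatives, 3 had enough UMIs to be tested. Among them *Fgf1* rose by 3.41 from e14.5 to p0 and by 2.81 from p0 to p12, reaching 642 ± 149 CPM in the adult (SD, n = 5). *Fgf9* rose by 1.53 from p0 to p12, and *Fgf18* by 1.47 from e14.5 to p0 and by 0.98 from p12 to the adult. Of 5 receptor genes only *Fgfr1* was tested, and it rose by 1.13 from p0 to p12 (adjusted p = 0.00808). The adjusted p-values of all these genes are from the same edgeR fit as those of the members.

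**Figure D4:**
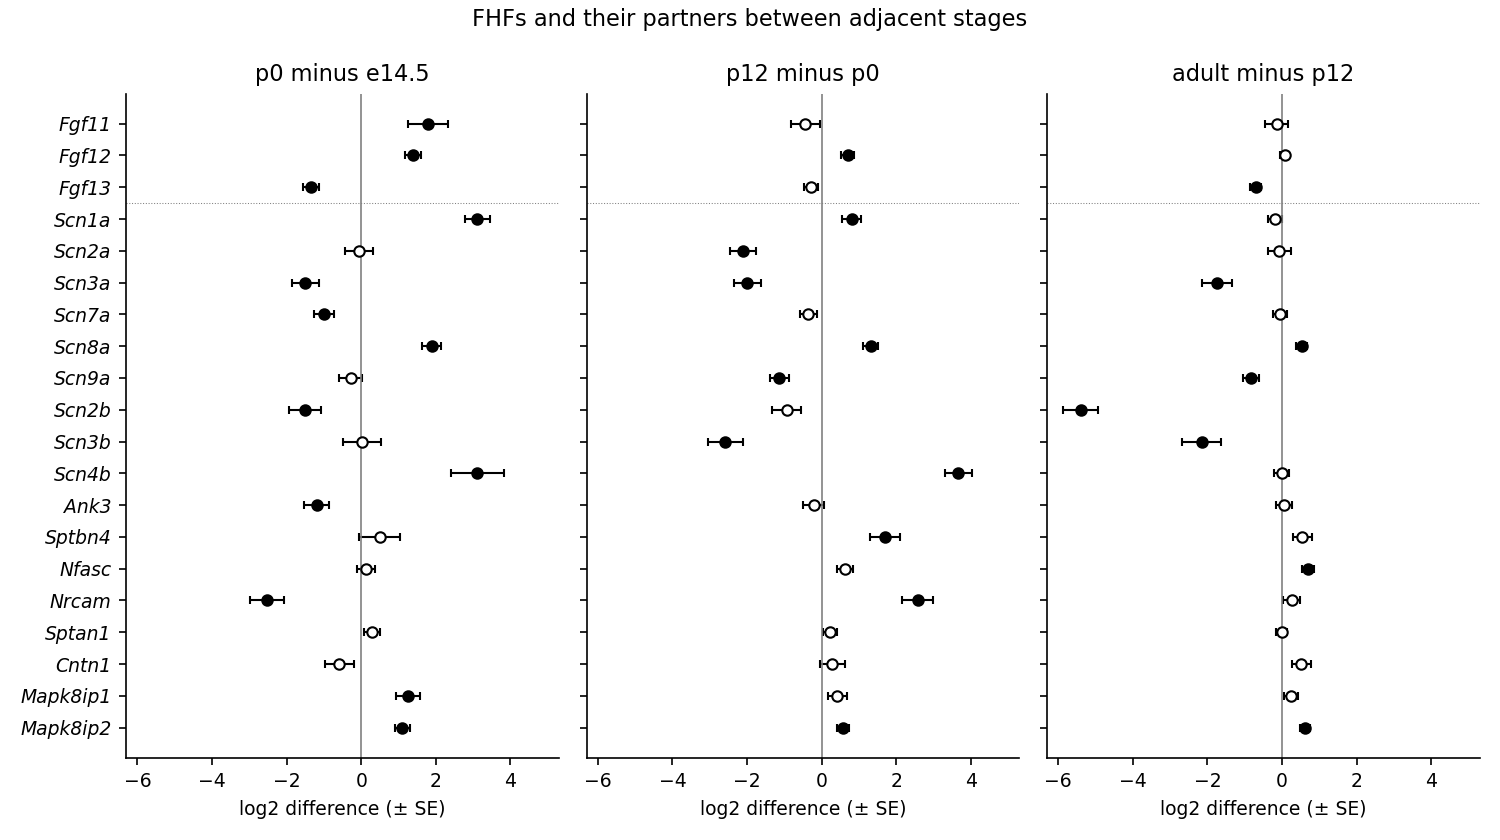
Log2 differences between adjacent stages (points) with their standard errors (bars) for the 3 tested FHFs, above the dotted line, and for other tested genes of sodium channels, initial segment and kinase scaffolds. Filled points passed an adjusted p of 0.05 in edgeR, open points did not. *Fgf12* and *Fgf13* lie on opposite sides of 0 at e14.5 to p0 (1.38 and -1.34), and *Scn2b* is the lowest point of the last step (-5.40).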

How the data were processed

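UMI counts per gene and well of 13 plates were used as deposited, whole numbers without normalization. Per the labels and the methods, the authors aligned reads with STAR (version not given in the sources used here) to mm10/GRCm38 with the NCBI annotation, collapsed them by UMI, and clustered kept neurons with hicat. A deposited filtered matrix was not used. The deposited annotation gave the kept neurons, plates and clusters.

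The members and gene lists were chosen with earlier results of these data known. UMIs of kept neurons were summed by plate (stages) or by cluster and plate with at least 2 neurons (adult clusters) and tested in R 4.3.3 with the quasi-likelihood F-test of edgeR 4.0.16, after filterByExpr and TMM scaling, with Benjamini-Hochberg adjustment over all tested genes and a threshold of 0.05. The adult clusters were fitted the same way and given without p-values. SE is the log2 difference over the root of F. All stages shared 1 fit, without covariates. The fits were tested on simulated data. The depth of a plate, over its kept neurons, ran from 680212 to 2387288 UMIs. The low counts of *Fgf11* and *Fgf14* limit their precision. Intervals are exact Poisson (95%), and an absent gene is limited to 3 counts.

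Named are the 4 members, up to 4 genes of each list with the largest log2 difference among its called genes in adjacent stages, and the 3 genes of highest Pearson's r with each member, predicted genes skipped. The result of 1 list gene is not reported here. Plate means were also computed with pandas 2.3.3 and numpy 2.4.6, intervals with scipy 1.17.1 in Python 3.11.15, and plots with matplotlib 3.10.9. Alternatives were DESeq2 1.42.0 (limma 3.58.1 is a dependency of edgeR), size factors of DESeq2 used in edgeR, no low-count filter, thinned neurons (7000 UMIs), other sets of neurons, wells, clusters or plates, sums of at least 1 or 4 neurons, plate as a block, pooled levels and at least 2 UMIs for detection. Leaving out p0 cluster 3 and taking pairs of p12 or sets of adult plates alone between stages were chosen after seeing the data.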

Additional observations from a re-analysis of the deposited data

Results flagged for a closer look

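In groups of 4 or 5 plates, 5 of 37 sets of member values had 1 plate far from the others. Chance gives about 1 in 20 for values free to vary, a rate that does not apply to 4 of the 5, in which all other plates stood at 100% or at 0 and any deviating plate stands out. Of these 4, 2 are the same UMI of *Fgf14*. In the adult, replicate 1 had 1.81 UMIs of *Fgf12* per UMI of *Fgf13*, below 2.32 to 2.40 on the other plates. At p12, the share of neurons with a UMI of *Fgf13* was 90.3% on replicate 4 and 100% on the others, and in adult cluster 3 it was 85.7% on replicate 5 and 100% on the other plates with at least 2 neurons of that cluster. A single UMI of *Fgf14* on p12 replicate 3 gave that plate 0.329 CPM and 1.49% of neurons with a UMI, against 0 on the others.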

How the results depend on the processing

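Of 225 alternative values of member stage differences, 208 kept their direction and side of the threshold, 8 were no longer called, 1 became called and 8 changed sign, none of them called on either side. *Fgf11* from p12 to the adult (-0.14) was 0.28 in thinned neurons, 0.13 in all wells with at least 2000 genes, 0.89 with p12 plates 1 and 2 alone, and -0.39 to 0.16 leaving out plates, above 0 without p12 replicate 3 (0.031) or 4. *Fgf12* at that step (0.07) was -0.11 in thinned neurons and -0.011 with p12 plates 3 and 4 alone, which also gave 0.049 for *Fgf11* from p0 to p12. *Fgf12* and *Fgf13* from e14.5 to p0 and *Fgf13* from p12 to the adult were called in each of them. *Fgf11* from e14.5 to p0 was 1.37 in thinned neurons and 1.76 to 1.88 leaving out 1 plate of either stage. *Fgf12* from p0 to p12 was 0.73 with no filter and 0.62 to 0.78 leaving out plates. *Fgf11* from p0 to p12 was -1.47 with p12 plates 1 and 2 alone. The cause was not tested. Called genes numbered 3314, 2162 and 1687 for the 3 steps, 1543, 661 and 697 in thinned neurons, and 1455 to 3571, 884 to 2291 and 787 to 1960 leaving out 1 plate, the lowest without p0 replicate 1, p0 replicate 2 and p12 replicate 3. For the last step they numbered 529 with p12 plates 1 and 2 alone and 3070 with plates 3 and 4 alone. Of 281 alternative adult cluster differences 16 moved by more than the spread between plates and 8 changed sign, all of results within 0.21 of 0. In thinned neurons *Fgf13* was -0.35, -1.45 and 1.44 for clusters 1, 2 and 4 against the others, 0.16 for clusters 1 and 5 against 2 to 4 and 0.74 for cluster 5 against 1. With replicates 1 and 2 alone, cluster 3 was 0.35 for *Fgf12* and -0.79 for *Fgf13*, cluster 5 was -4.63 for *Fgf11* and -0.050 for *Fgf12*, and cluster 5 against 1 was -2.84 for *Fgf11*. With replicates 3 to 5 alone, *Fgf12* was 0.22 for cluster 1 and -0.36 for cluster 3, *Fgf11* was 3.01 for cluster 3 and -2.37 for cluster 5, and *Fgf13* was 1.09 for cluster 5 and 0.14 for clusters 1 and 5 against 3. No paired analysis was possible because the replicate numbers of different stages name different plates. Plate as a block moved none of the adult cluster differences beyond that spread. Few UMIs limit *Fgf11* and *Fgf14*.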

Other observations

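In wells with at least 2000 genes that the authors did not keep, the order of stages was the same for *Fgf12* and *Fgf13* from p0 to the adult. *Fgf12* averaged 212 ± 25.5 CPM in the adult (SD, n = 5 plates), 176 ± 18.3 CPM at p12 (n = 4) and 137 ± 7.96 CPM at p0 (n = 2), and *Fgf13* 127 ± 35.9, 214 ± 20.0 and 262 ± 37.0 CPM. *Fgf11* averaged 28.9 ± 5.40 CPM in the adult, 18.4 ± 4.70 CPM at p12 and 27.3 CPM at p0 (26.8 and 27.8 on the plates), so here p0 did not lie above the adult.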
